A study of Rattus norvegicus with 4 samples.

Results

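The Hedgehog pathway and its ventral forebrain partners were examined here as 10 listed genes: the ligand gene Shh, the receptor and receptor-side genes Ptch1, Smo and Hhip, the effector genes Gli1, Gli2 and Gli3, and the ventral transcription factor genes Nkx2-1, Olig1 and Olig2. A gene was taken from every probe set of the expression table to which the platform annotation gives that gene symbol and no other. This rule found 8 of the 10 genes, through 10 probe sets, among 14217 genes named in all. Ptch1 and Gli3 had no such probe set and were not analysed here.

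The study measured RNA on 4 one-colour arrays of embryonic rat telencephalon, the front part of the forebrain, at E11.5 (embryonic day, counted from midday of the vaginal plug as E0.5). The wild-type group and the Pax6 mutant group, homozygous rSey2/rSey2, had 2 arrays each, and both were on a Sprague-Dawley background. Pax6 encodes a paired-box transcription factor of the dorsal telencephalon. The design text gives 13 dissected telencephalons and a repeat per genotype, so an array stands for pooled embryos. The sample titles call the arrays of each genotype biological replicates. Litters are not named, so p-values speak only to array-to-array spread, which may be partly technical. How pallium, subpallium and neighbouring forebrain were parted in the dissection was not stated in the labels.

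Sonic hedgehog is a secreted protein made by ventral midline cells. It binds the receptor Patched, which then stops holding back Smoothened, and Smoothened activity at the primary cilium turns the Gli proteins from repressors into activators of transcription. In the forebrain the signal helps to set ventral identity: Nkx2-1 marks the medial ganglionic eminence and the hypothalamus, Olig1 and Olig2 are expressed in ventral progenitors, and Gli1, Ptch1 and Hhip are transcribed in response to the signal. Pax6 and Nkx2-1 are textbook markers of dorsal and ventral forebrain territories, which makes the ventral genes a natural comparison in a Pax6 mutant.

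Values are the deposited GCRMA values on the log2 scale, 1 per probe set and array, and differences are mutant minus wild type with the standard error (SE) of limma, which borrows variance across probe sets. Of 31042 non-control probe sets, 18625 with a mean of at least 3.21 were tested, and dimmer ones were not. Over these, 0 passed a Benjamini-Hochberg adjusted p of 0.05 (limma), with 680 at an unadjusted p under 0.05, and the lowest adjusted p was 0.196. Median values of the tested probe sets lay between 8.22 and 8.35 on the 4 arrays. Arrays give no read depth, and their number limits the precision. Markers were read to check the tissue label: Lhx2 (13.01 to 13.42 over the 4 arrays) and Emx2 (10.45 to 10.59) were bright, and Six3 was lower (5.07 to 5.30). Also on that list, Dmrta1 read 8.61 and 8.80 in wild type and 5.17 and 6.29 in the mutant (difference -2.97, SE 0.45). Tfap2c differed by -0.43 (SE 0.08), so Dmrta1 and Tfap2c check the tissue in wild type only. Lhx2 differed by 0.30 (SE 0.10) and Emx2 by -0.09 (SE 0.07). The 4 midbrain and hindbrain markers with a probe set (En2, Pax2, Pax8 and Wnt1) were all dim.

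Among the members, Nkx2-1 was the gene with the clearest separation of the genotypes, about 1.54-fold higher in the mutant arrays. Gli1 was slightly higher and Gli2 lower in both mutant arrays than in both wild-type arrays, while Shh, Smo, Olig1 and Olig2 overlapped between the genotypes. No member passed the adjusted threshold: 0 of the 7 tested genes, beside a background of 0% of all tested probe sets. At an unadjusted p under 0.05 stood 1 higher member (Nkx2-1) and 0 lower members, where the background was 1.74% higher and 1.91% lower. Of the 7, 3 had a positive and 4 a negative difference, with a median of -0.00315, beside a median of 0 over all 9840 tested genes. Without overlap between genotypes, 2 of 7 members were higher (Gli1 and Nkx2-1) and 1 of 7 lower (Gli2), where 11.4% of all tested probe sets were higher and 11.8% lower by the same rule. Leaving out mutant replicate 2 made the count of lower members 4, leaving out wild-type replicate 1 made it 2, and leaving out mutant replicate 1 made the count of higher members 4. The eighth gene on the array, Hhip, was dim and was not tested.

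**Figure D1:**
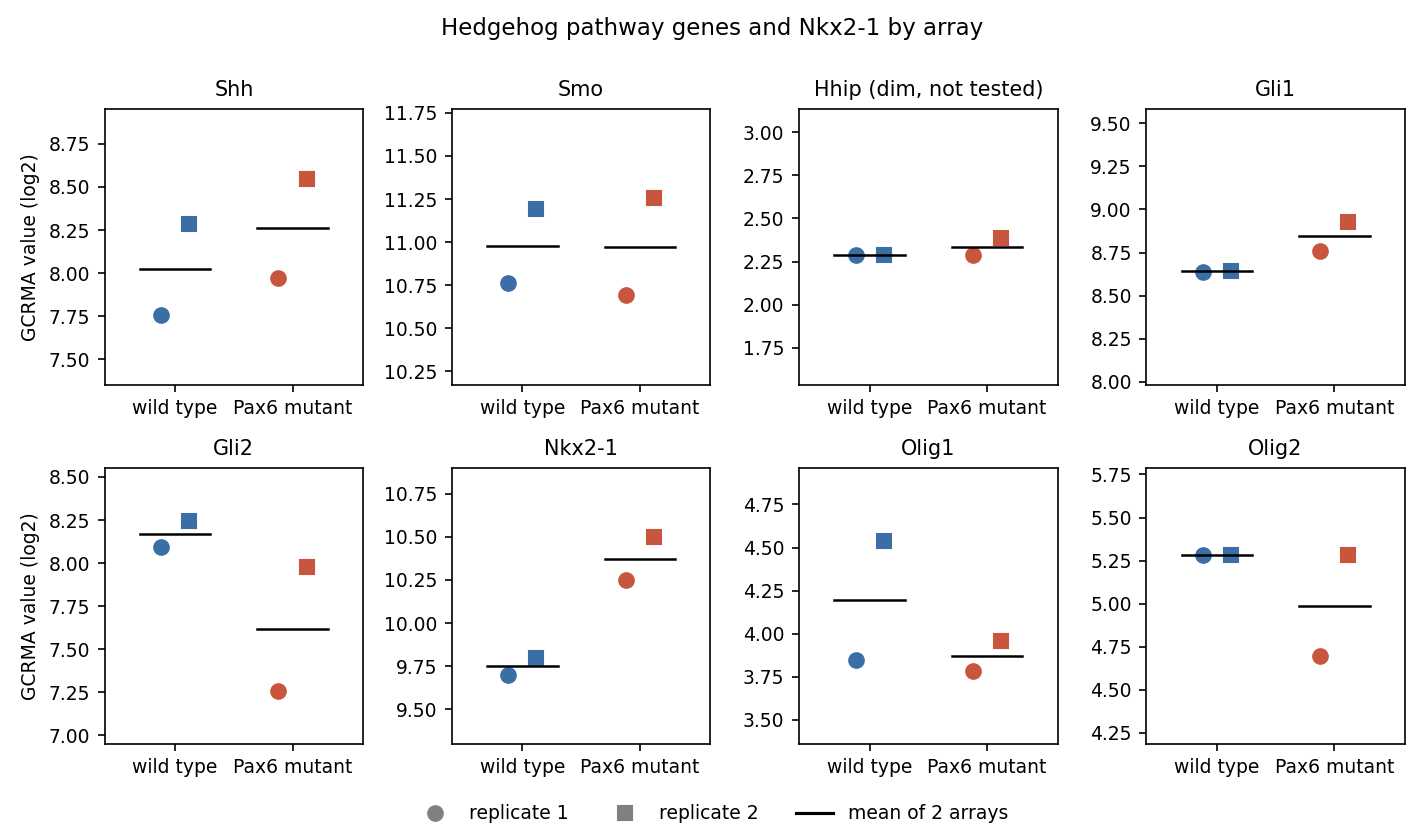
GCRMA value (log2, y axis) of the brightest probe set of each of the 8 members on every array; circles are replicate 1, squares replicate 2, and black lines the mean of 2 arrays. All panels span the same number of log2 units. Nkx2-1 and Gli1 lie higher and Gli2 lower in both mutant arrays, and the remaining panels overlap or hold tied values.

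Nkx2-1 encodes a homeodomain transcription factor needed for the medial ganglionic eminence. Its probe set (1371010_at) gave 9.70 and 9.80 for wild type and 10.25 and 10.50 for the mutant. The lowest mutant value thus lay above the highest wild-type value, and each group's spread was smaller than the gap between the groups. The means were 9.75 ± 0.07 (SD, n = 2) and 10.37 ± 0.18 (SD, n = 2). Their difference of 0.63 (SE 0.12; 95% interval 0.25 to 1.01) corresponds to a fold of 1.54 with an interval from 1.19 to 2.01. Its unadjusted p in limma was 0.0126 and its adjusted p was 1, so it did not pass over all probe sets. Nkx2-1 ranked 206 from the top of 18625 by signed difference. The smallest two-sided p of an exact permutation test on 2 against 2 arrays is 0.333, which is why no such test was run. In these bulk samples, more Nkx2-1 cells and more Nkx2-1 RNA per cell cannot be told apart.

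For Shh, the ligand gene, arrays of the same genotype lay further apart than the genotype means. Its probe set (1387584_at) read 7.76 and 8.28 in wild type and 7.97 and 8.55 in the mutant. Both arrays numbered 2 lay above both arrays numbered 1, whatever the genotype, and the groups overlapped. The difference was 0.24 (SE 0.31; 95% interval -0.72 to 1.19), within the spread between replicates (limma adjusted p = 1). Leaving out wild-type replicate 1 gave -0.024 and leaving out mutant replicate 2 gave -0.049, so the sign changed without those arrays. Each of these settings leaves the replicate numbers unbalanced between genotypes. Within each replicate number the mutant array read higher, though the labels do not pair the arrays. With a replicate block the SE was 0.06 (limma unadjusted p = 0.0491, adjusted p = 0.736). As a fold the interval runs from 0.609 to 2.29, so it spans both lower and higher Shh in the mutant.

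On the receiving side, Smo encodes Smoothened, the membrane protein that passes the signal into the cell, and it was bright on every array. Its brighter probe set (1370143_at) read 10.76 and 11.19 in wild type and 10.69 and 11.25 in the mutant, with the same high and low order by replicate number as Shh. The difference was -0.00315 (SE 0.29; 95% interval -0.87 to 0.87), with a sign that changed when wild-type replicate 2 (0.21) or mutant replicate 1 (0.28) was left out and after quantile normalization (0.000425). A second Smo probe set (1389475_at) read 10.43 and 10.56 in wild type and 10.56 and 10.83 in the mutant. There wild-type replicate 2 and mutant replicate 1 were nearly level, and the difference was 0.19 (SE 0.14; 95% interval -0.22 to 0.61; limma adjusted p = 1). The probe sets of Smo therefore differed in the size of the estimate, and in both the groups overlapped.

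Hhip encodes a membrane protein that binds and sequesters Hedgehog ligands and is transcribed in response to them. Its probe set (1390606_at) read 2.29 on 3 arrays and 2.39 in mutant replicate 2, below the dim level of 3.21 everywhere, and only slightly above the lowest value of the table, 2.07. No change of Hhip can be read from values this low. Ptch1, the other receptor-side gene that responds to the signal, had no probe set here, which leaves Gli1 as the 1 tested member that is commonly used as a transcriptional readout of the pathway.

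Gli1 encodes a zinc-finger activator that is itself a target of the pathway. Its probe set (1378720_at) read 8.64 in wild type, on both arrays, against 8.76 and 8.93 in the mutant. The wild-type arrays were nearly identical and both mutant arrays lay above them. The difference was 0.20 (SE 0.10; 95% interval -0.09 to 0.49), a fold of 1.15 with an interval from 0.942 to 1.41 (limma adjusted p = 1). A change of Gli1 of more than about 1.41-fold upward was outside this interval.

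Gli2, which encodes the zinc-finger protein that carries most of the activating response before Gli1 is made, had the largest negative difference of the members. Its probe set (1390233_at) read 8.09 and 8.24 in wild type and 7.26 and 7.98 in the mutant. Both mutant arrays were below both wild-type arrays, and mutant replicate 1 was the lowest by a wide margin. The difference was -0.55 (SE 0.30; 95% interval -1.45 to 0.35; limma adjusted p = 1), or 1.46-fold lower. It was -0.19 when mutant replicate 1 was left out and -0.91 when mutant replicate 2 was. Gli1 and Gli2 thus had differences of opposite sign, and that contrast between the 2 genes was not tested.

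Olig1 and Olig2 encode related basic helix-loop-helix factors of ventral progenitors and, later, of the oligodendrocyte lineage, and both were low. Olig1 (1387200_at) read 3.85 and 4.54 in wild type and 3.79 and 3.96 in the mutant, so that wild-type replicate 2 stood above the other 3 arrays. The difference was -0.32 (SE 0.29; 95% interval -1.20 to 0.55; limma adjusted p = 1), and it was 0.020 without wild-type replicate 2. The brighter Olig2 probe set (1379593_at) read 5.28 in wild type, on both arrays, against 4.70 and 5.28 in the mutant, with 3 arrays holding an identical value. The difference of -0.29 (SE 0.24) therefore rests on mutant replicate 1 alone and was 0 without it. At least 3 identical values occurred in 3.56% of tested probe sets. A second Olig2 probe set (1398212_at) was at the lowest value of the table, 2.07, on all 4 arrays.

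**Figure D2:**
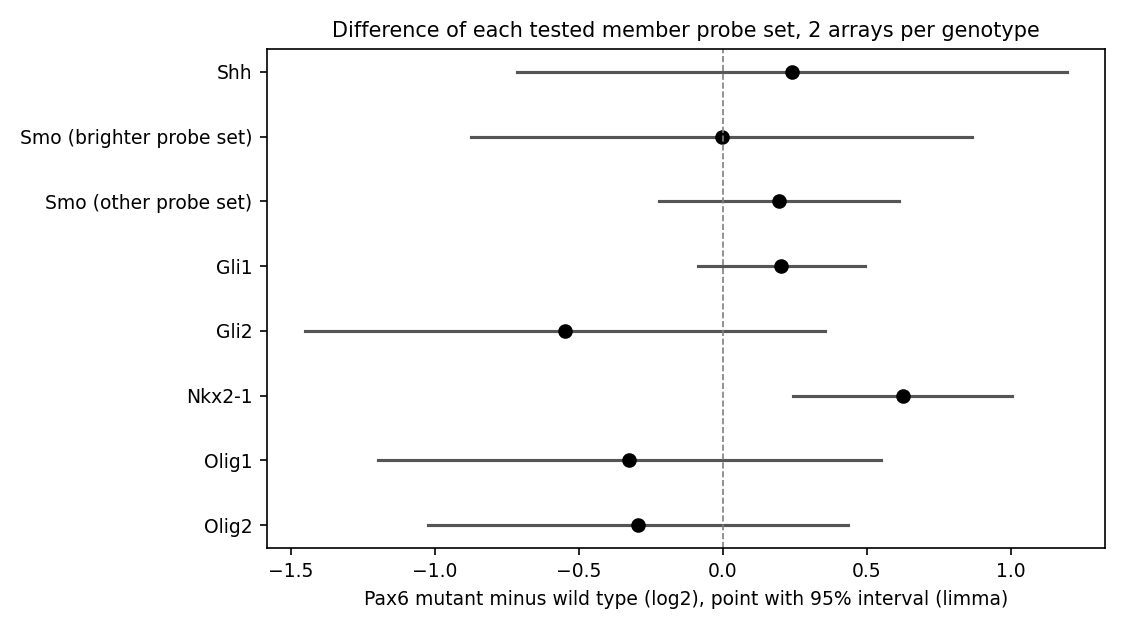
Mutant minus wild-type difference (log2, x axis) of the 8 tested member probe sets with its 95% interval from limma, 2 arrays per genotype. The interval of Nkx2-1 (0.25 to 1.01) lies above 0, and the other 7 intervals include 0.

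Promoter letters were available for 7 of the 10 genes in the RefSeq table (build GRCr8), in windows of 300 bases that run from 250 before to 50 after the start site the table uses. Gli proteins are known to bind the letters GACCACCCA, and the homeodomain core TAAT is bound by many homeodomain proteins, though Nkx2-1 itself is known to prefer other letters. Both strands were searched. The Gli letters were found in 1 of the 7 windows, that of Ptch1, and in 0.385% of all 33469 promoter windows; the homeodomain core was found in 3 of 7 (Ptch1, Nkx2-1 and Olig2) and in 60.6% of all windows. The Ptch1 stretch is shown because it holds the Gli letters, in a receptor gene that is transcribed in response to this pathway. Whether these letters act in Ptch1 was not tested. The Nkx2-1 stretch is shown because Nkx2-1 is the member with the lowest unadjusted p. Each is printed 5′ to 3′ on the strand of the gene, with the motif, here as its reverse complement, in capitals.
Ptch1 (chr17:1555389-1555418, + strand, 172 to 164 bases before the start site): gttgcctaccTGGGTGGTCtctctactttg
Nkx2-1 (chr6:79735019-79735048, - strand, 168 to 165 bases before the start site): tccactcaagccaATTAaggcggactcggt
The Nkx2-1 start site of the table lies 1085 bases inside the outer boundary of the gene, and that of Ptch1 7122 bases inside, so other transcripts of each gene start elsewhere. The arrays do not measure binding at either site. Letters that match a motif are not a measured binding site, and the windows of Smo, Gli2, Gli3 and Hhip held neither motif.

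The rest of the Hedgehog pathway was read from 60 further genes in lists for ligand release, reception, intracellular signalling, the primary cilium and targets. Of these, 52 had a probe set and 45 were tested, each at its brightest probe set. None passed the adjusted threshold (limma, 0 of 45). The differences were positive for 28 and negative for 17, with a median of 0.02. Over all 9840 tested genes the median was 0, and 4907 differences were positive. The list median became 0.15 with mutant replicate 1 left out and -0.071 with mutant replicate 2 left out. The median over all tested probe sets moved the same way, to 0.025 (55.4% positive) and -0.0325 (40.8% positive). An unadjusted p under 0.05 (limma) was reached by 2 higher genes (Lrp2 and Sall1) and 1 lower gene (Arrb2) of 45. Over all tested probe sets those shares were 1.74% and 1.91%. Non-overlapping groups were found for 10 higher and 6 lower genes of 45, where 11.4% and 11.8% of all tested probe sets separated that way. These counts describe the list and are not a test of it.

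Ligand release was represented by 2 tested genes. Disp1, which encodes the transporter-like protein that frees lipid-modified Hedgehog from producing cells, differed by -0.22 (SE 0.17), and Scube1, of a family of secreted proteins that help release, by 0.16 (SE 0.23); both overlapped between genotypes. Leaving out wild-type replicate 2 gave -0.012 for Disp1, leaving out wild-type replicate 1 gave -0.42, and Scube1 was -0.07 without mutant replicate 2. The other Hedgehog ligand genes, Ihh and Dhh, were at the lowest value of the table on every array, so Shh was the ligand gene with a measurable signal.

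Among genes of reception, 4 of 7 tested had a positive and 3 a negative difference, with a median of 0.02. Boc, which encodes a co-receptor that binds Sonic hedgehog together with Patched, read 9.62 and 9.80 in wild type and 8.90 and 9.37 in the mutant. Both mutant arrays lay below both wild-type arrays, and the difference was -0.57 (SE 0.21; limma adjusted p = 1), or -0.33 without mutant replicate 1. Its relative Cdon, on the same side of the pathway, differed by 0.02 (SE 0.14), but by -0.14 when mutant replicate 2 was left out and by 0.18 when mutant replicate 1 was. Lrp2, an endocytic receptor that takes up Sonic hedgehog in the forebrain, read 9.44 and 9.56 in wild type and 9.89 and 10.05 in the mutant. Both mutant arrays lay above both wild-type arrays, as for Nkx2-1, with a difference of 0.46 (SE 0.10; limma unadjusted p = 0.0173, adjusted p = 1). Arrb2, a beta-arrestin, differed by -0.45 (SE 0.08; limma unadjusted p = 0.00864, adjusted p = 1).

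The intracellular and ciliary genes had small differences. All 13 tested intracellular genes lay between -0.14 and 0.18, with a median of -0.02. The largest differences were those of Kif7, the ciliary-tip kinesin that acts with Gli proteins (0.18, SE 0.07), Cul3, a scaffold of the ubiquitin ligase that degrades Gli proteins (0.15, SE 0.13), and Prkacb, a catalytic subunit of the kinase that primes Gli proteins for processing (-0.14, SE 0.11). Cul3 was 0.012 without mutant replicate 2 and Prkacb -0.03 without mutant replicate 1. Sufu, the main cytoplasmic inhibitor of Gli proteins, differed by 0.08 (SE 0.35), and by -0.28 without mutant replicate 2 or 0.44 without mutant replicate 1. The 13 tested cilium genes lay between -0.17 and 0.36, with a median of 0.04, and the highest was Evc (0.36, SE 0.15; 0.20 without mutant replicate 2), which encodes a protein at the base of the cilium that assists Smoothened. Dync2h1, the motor of retrograde transport in the cilium, differed by -0.17 (SE 0.10; -0.10 without mutant replicate 1), and Tulp3, an adaptor for ciliary receptors, by 0.15 (SE 0.24), or -0.13 without mutant replicate 2.

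Of the 10 tested target genes, 8 had a positive and 2 a negative difference, with a median of 0.16. Of all 9840 tested genes, 4907 had a positive difference. Without overlap, 4 of the 10 were higher and 2 lower, beside 11.4% and 11.8% of all tested probe sets. Sall1, a zinc-finger gene, read 9.18 and 9.14 in wild type and 9.63 and 9.68 in the mutant, and differed by 0.49 (SE 0.07; limma unadjusted p = 0.00481, adjusted p = 1). Ccnd1, a G1 cyclin chosen after its values were seen, read 12.28 and 12.70 in wild type and 12.81 and 13.03 in the mutant at its brightest probe set. At its other 2 probe sets, too, both mutant arrays lay above both wild-type arrays. The differences were 0.43 (SE 0.20), 0.44 (SE 0.13) and 0.46 (SE 0.15), none past the adjusted threshold. That of the brightest was 0.22 without wild-type replicate 1. Ccnd1 is also driven by other growth signals. Foxc2 differed by 0.54 (SE 0.45), or by -0.02 without mutant replicate 2.

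Foxa2, a target that marks the floor plate, was at the other end. It read 4.79 and 6.11 in wild type and 4.11 and 4.60 in the mutant. Wild-type replicate 2 stood above the other 3 arrays, and the difference of -1.10 (SE 0.56; limma adjusted p = 1) was -0.44 without it and -0.74 with a pseudocount of 16. Nkx2-2, which needs strong Hedgehog signal in the ventral neural tube, read 8.69 and 8.98 in wild type and 8.76 and 9.27 in the mutant and overlapped, with a difference of 0.18 (SE 0.24) that was -0.08 without mutant replicate 2. Nkx6-1 and Nkx6-2 were dim.

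**Figure D3:**
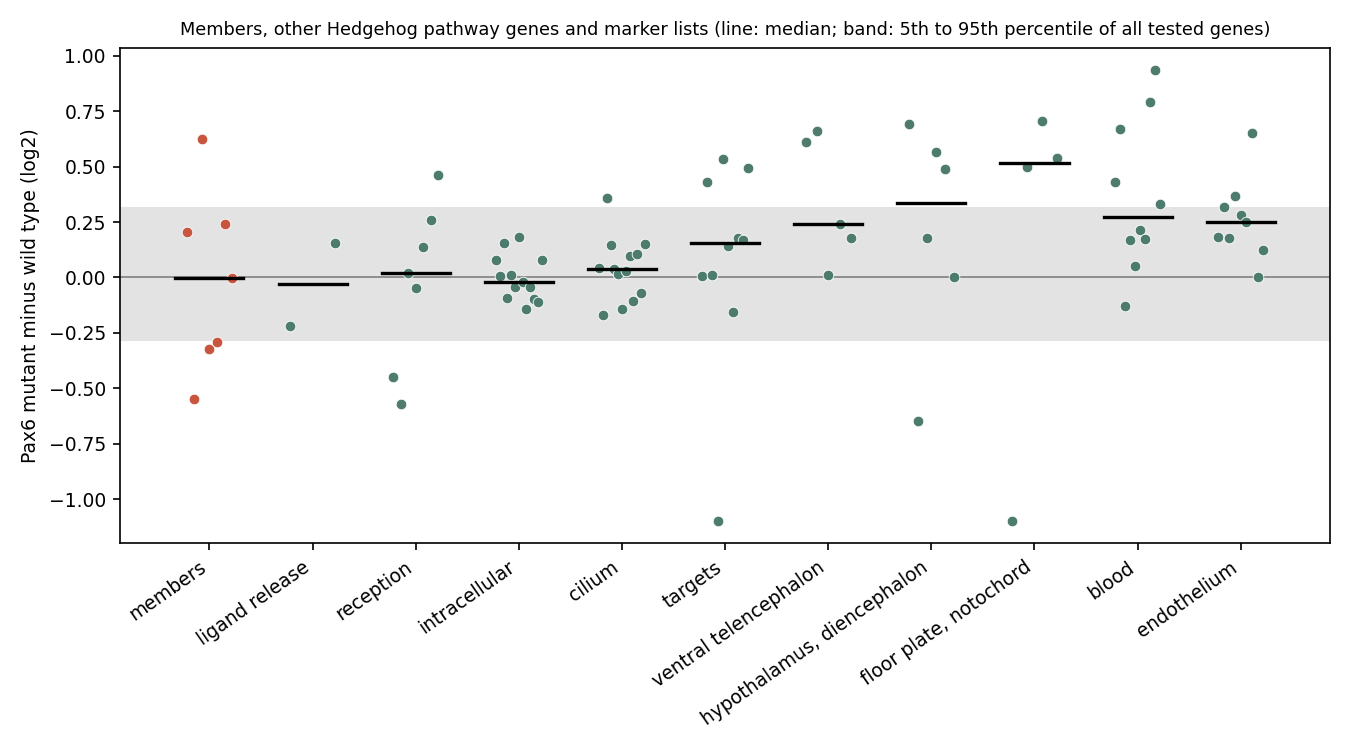
Mutant minus wild-type difference (log2, y axis) of each tested gene at its brightest probe set, by list; black lines are list medians and the grey band spans the 5th to 95th percentile of all tested genes (-0.28 to 0.31). Intracellular genes lie within the band, while 4 members lie outside it, Nkx2-1 (0.63) above and Gli2 (-0.55), Olig1 (-0.32) and Olig2 (-0.29) below.

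Genes of the ventral telencephalon that are not members were set beside Nkx2-1. At its brightest probe set, each of the 5 tested genes had a positive difference, with a median of 0.24. Of all 9840 tested genes, 4907 had a positive difference. Without overlap, 2 of the 5 were higher, beside 11.4% of all tested probe sets: Dlx1, a homeobox gene of the ganglionic eminences, and Six3. Dlx1 read 6.77 and 7.04 in wild type and 7.56 and 7.47 in the mutant, and its difference of 0.61 (SE 0.13; limma unadjusted p = 0.0155, adjusted p = 1) was close in size to that of Nkx2-1. Six3 differed by 0.18 (SE 0.07), Otx2 by 0.24 (SE 0.18; 0.05 with wild-type replicate 1 left out and 0.44 with replicate 2 left out), Isl1 by 0.01 (SE 0.07) and Ebf1 by 0.66 (SE 0.42), the last of which was 0.17 without mutant replicate 2. Isl1 was -0.01 without mutant replicate 1. A second, dimmer Otx2 probe set (1375394_at) differed by -0.08 (SE 0.12). Dlx5 was dim, and other listed genes, among them Dlx2, Gsx2 and Lhx6, were not analysed here.

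Nkx2-1 is also a gene of the hypothalamus, so markers of that neighbouring region were read on the same arrays. Of 12 listed genes, 10 had a probe set and 6 were tested. Of the 6, 4 had a positive difference and 1 a negative one, with a median of 0.33. Of all 9840 tested genes, 4907 had a positive difference. The optic and hypothalamic homeobox gene Rax read 8.17 and 8.68 in wild type and 8.98 and 9.01 in the mutant, and differed by 0.57 (SE 0.21), or by 0.31 when wild-type replicate 1 was left out. Six6, of the same territory, read 9.07 and 9.35 in wild type and 9.62 and 9.79 in the mutant, and differed by 0.49 (SE 0.14; limma unadjusted p = 0.0369). Fgf10 differed by 0.69 (SE 0.18), or 0.46 with a pseudocount of 16. For Rax, Six6 and Fgf10 both mutant arrays were above both wild-type arrays, as for Nkx2-1, and none passed the adjusted threshold. A second, dimmer Rax probe set (1398284_at) read 7.69 and 8.39 in wild type and 8.38 and 9.13 in the mutant. Its groups overlapped, with a difference of 0.71 (SE 0.40). At the brightest probe set, 3 of the 6 genes were higher and 1 lower without overlap, beside 11.4% and 11.8% of all tested probe sets. Irx3, a homeobox gene of the caudal forebrain and more posterior tube, lay the other way at -0.65 (SE 0.21; -0.41 without wild-type replicate 1). A second, dimmer Irx3 probe set (1394251_x_at) differed by -0.55 (SE 0.32), and its groups overlapped. Another Irx3 probe set was at the lowest value on every array.

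The summed linear signal of the 6 tested hypothalamic and diencephalic genes was 2033 to 2163 in wild type and 2179 to 2535 in the mutant. The later hypothalamic genes Sim1 and Otp were dim on all arrays. The part of this list in the Nkx2-1 difference was not tested.

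**Figure D4:**
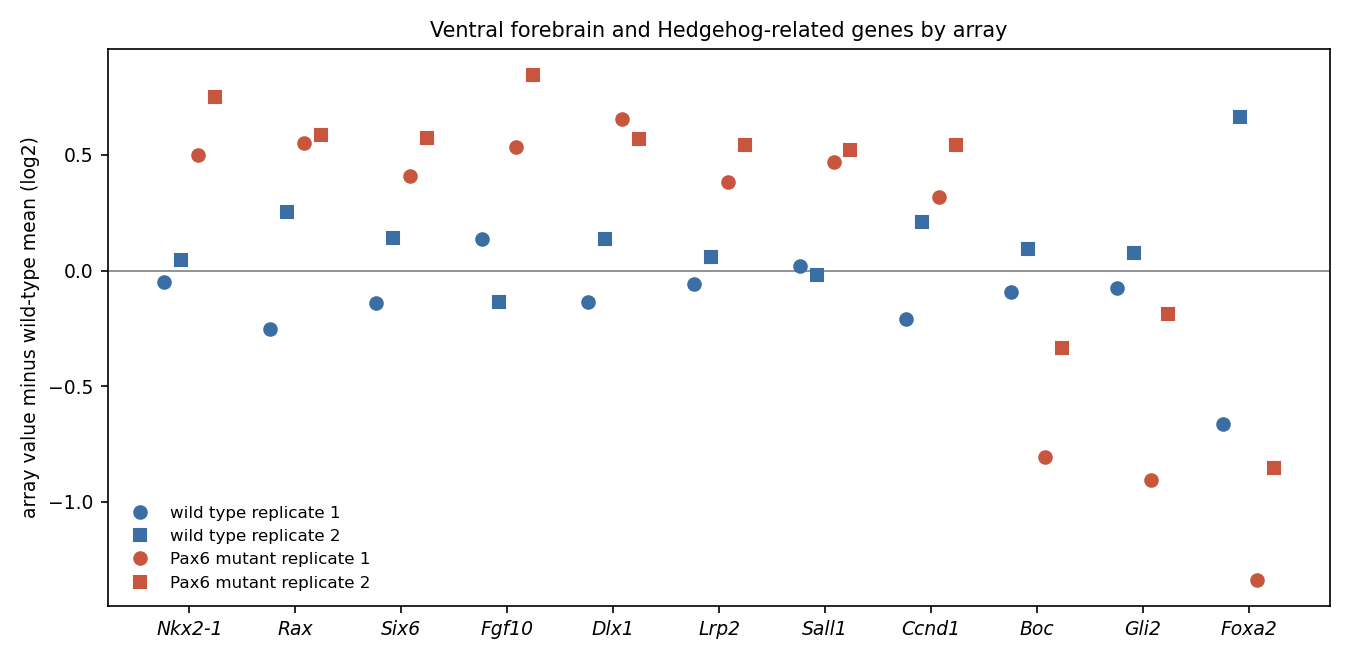
Value of each array minus the wild-type mean of that gene (log2, y axis) for Nkx2-1 and 10 genes chosen after their values were seen; blue is wild type, red is mutant, circles are replicate 1 and squares replicate 2. Both mutant arrays lie above both wild-type arrays from Nkx2-1 to Ccnd1, and below them for Boc, Gli2 and Foxa2.

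Signal from the floor plate or notochord, the sources of Sonic hedgehog along the body axis, was read from 4 tested genes, of which 3 had a positive difference. Ntn1, a guidance cue of the floor plate, differed by 0.70 (SE 0.17), and Nog by 0.50 (SE 0.18). Spon1 differed by 0.54 (SE 0.36, and 0.14 without mutant replicate 2) and Foxa2 by -1.10, so the genes of this list did not share a direction. Without overlap, 2 of the 4 were higher and 1 lower, beside 11.4% and 11.8% of all tested probe sets. A second, dimmer Ntn1 probe set (1398269_at) differed by 0.85 (SE 0.56), and its groups overlapped. The summed signal of the 4 was 1047 to 1223 in wild type and 1492 to 1880 in the mutant. Foxj1 and Chrd were dim.

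Markers of blood and vessels had mostly positive differences, where 4907 of all 9840 tested genes had a positive one. Of 10 tested blood genes, 9 had a positive difference (-0.13 to 0.94, median 0.27), and their summed signal was 67539 to 68316 in wild type and 78158 to 78534 in the mutant. All 9 tested endothelial genes had a positive difference (median 0.25), with a summed signal of 2948 to 2967 in wild type and 3322 to 3835 in the mutant. Mesenchyme genes (4 positive of 9, median -0.07; summed signal 8745 to 8854 and 7315 to 8484) and surface ectoderm genes (3 positive of 6, median -0.25; 488.1 to 572.4 and 477.3 to 497.2) had medians below 0. The largest differences of the mesenchyme list were those of Pdgfra (-0.44, SE 0.21), Foxc1 (-0.32, SE 0.51; 0.22 without mutant replicate 1) and Prrx1 (0.31, SE 0.21). Those of the surface ectoderm list were Epcam (-0.92, SE 0.30), Krt18 (-0.73, SE 0.10) and Cdh1 (0.59, SE 0.14). The part of these tissues in the differences of the members was not tested.

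The genes whose 4 array values ran most like those of Nkx2-1 were found by the Euclidean distance between profiles after subtracting each gene's mean, over 9840 tested genes. They were Timp3 (distance 0.0396), Gse1 (0.0768), Nfe2 (0.0784), Myo5b (0.0798) and Bcl7b (0.112), with differences from 0.52 for Bcl7b to 0.70 for Gse1. With 4 arrays, likeness of this kind records little more than a difference of similar size. It is given as a description.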

How the data were processed

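The deposited values are log2 values per probe set and array, and the submitters' processing notes name GCRMA (version not given in the sources used here). This method models background from the sequence of each probe, which leaves many dim probe sets at a shared lowest value, then normalizes arrays and combines probes. That the values are log2 was inferred from their range. No further normalization was applied. Of 31099 probe sets, 57 controls were removed. Those with a mean under the 40th percentile were not tested. limma (3.58.1, R 4.3.3) fitted genotype with lmFit and eBayes, with Benjamini-Hochberg adjustment over 18625 probe sets, threshold 0.05. The procedure was checked on simulated data with a common SD and independent arrays. Same-numbered arrays were correlated in the real data, so that check does not cover error rates here. A gene is represented by its brightest tested probe set. Symbols come from the platform annotation; 436 probe sets with several symbols and 9780 with none were not used. The listed symbols Adrbk1 and Trp63 were updated through RefSeq. Named were all members, up to 3 genes with the largest absolute difference per list, all tested ventral genes, and the 5 nearest profiles to Nkx2-1; blood and endothelium are given by counts. Emx2, Cdon, Sufu, Ccnd1, Nkx2-2, Six6 and Nog were added after their values were seen. The members and lists were chosen with earlier results of these data known. Figures used matplotlib 3.10.9.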

Additional observations from a re-analysis of the deposited data

How the results depend on the processing

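Alternatives were no filter, a stricter filter (60th percentile), a pseudocount of 16, quantile normalization, median centring, a replicate block, an eBayes intensity trend, averaged probe sets and leaving out each array. The differences of the 8 tested member probe sets were recomputed 86 times: 0 passed (lowest adjusted p 0.727), 80 did not turn their sign and 6 did. Of the 6, 1 was Smo after quantile normalization (0.000425) and 5 came from leaving out an array. With 1 array left out, differences ran from -0.049 to 0.53 for Shh, -0.28 to 0.28 and 0.06 to 0.33 for the Smo probe sets, 0.12 to 0.29 for Gli1, -0.91 to -0.19 for Gli2, 0.50 to 0.75 for Nkx2-1, -0.67 to 0.020 for Olig1 and -0.59 to 0 for Olig2. The lone array of a genotype was then assumed to vary like the others. The count of called probe sets was 1 with the stricter filter and 2 after quantile normalization or median centring, with 0 members among them. The count of lower members was 2 after quantile normalization and 3 after median centring. With 1 array left out it was 1 to 4, and that of higher members 2 to 4. Separation is easier to meet with 1 array left out, and no share over all probe sets was taken there. The member median ran from -0.28 to 0.28 and that of the other pathway genes from -0.071 to 0.15 with 1 array left out. Over all tested probe sets the median then ran from -0.0325 to 0.025. The replicate number pairs nothing in the labels; deviations of same-numbered arrays correlated at 0.43. With the replicate block, 0 probe sets passed (1194 at an unadjusted p under 0.05), Nkx2-1 had an SE of 0.08 and Shh an SE of 0.06, at an adjusted p of 0.736 in limma. The scanner files were not used here, so background correction was not varied. No profile nearest to Ptch1 was sought, since Ptch1 had no probe set. Values near 2.07 limit what can be read for Hhip and the dimmer Olig2 probe set.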
